A study of Homo sapiens with 4 samples.

Results

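The BCL2 family is described here through 10 of its genes, taken by gene symbol from the 60558 genes listed in each library: BCL2, BCL2L1, BCL2L2, MCL1 and BCL2A1, which restrain apoptosis, BAK1, which executes it, and the BH3-only genes BID, BIK, BCL2L11 and PMAIP1, which trigger it. Levels came from A549 and HCC827, established human LAD (lung adenocarcinoma) cell lines, each transduced either with an empty vector or with myr-AKT1, a constitutively active AKT1 that a myristoylation signal holds at the membrane. Every group was 1 library, giving 4 libraries in all, named after line and construct (A549-vector, for example), and the time after transduction was not given in the sources used here. Differences within a cell line therefore have no replicate check, and their 95% intervals cover counting error only.

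BCL2-family proteins meet at the outer mitochondrial membrane. BAK1 and BAX form the pores through which cytochrome c leaves, the anti-apoptotic proteins hold them back by binding them and the BH3-only proteins, and the BH3-only proteins occupy that binding groove or activate the pore formers directly. AKT is known as a survival kinase that phosphorylates the BH3-only protein BAD and the FOXO transcription factors, keeping FOXO out of the nucleus, and BCL2L11 is a well-known FOXO target.

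The libraries held 16322183 to 33530317 reads, recovered from deposited normalized counts (read counts divided by 1 size factor per library). AKT1 itself was higher in myr-AKT1 cells, by a log2 ratio of 0.57 in A549 and 1.14 in HCC827, and its total can hold construct reads beside endogenous ones. EPCAM, KRT8, KRT18, KRT19 and CDH1 had reads in all 4 libraries, and the 7 epithelial markers summed to normalized counts of 172037 with vector and 142816 with myr-AKT1 in A549 and of 149871 and 77284 in HCC827. In A549 the sum was mostly KRT8 and KRT18, with log2 fold changes of -0.36 and -0.38. EPCAM was at 0.59 and CDH1 at 1.39 there. In HCC827, KRT8, KRT18, EPCAM and CDH1 were at -1.81, -1.75, -0.22 and 0.31. KRT19 had log2 fold changes of 2.65 in A549 and -0.75 in HCC827, and of the lung markers SFTPB had 0 reads in both A549 libraries and NKX2-1 had 0 and 8. In HCC827-vector and HCC827-myr-AKT1 cells, NKX2-1 had normalized counts of 1584 and 883, and SFTPB had 42 and 2 reads. Summed fibroblast markers had normalized counts of 82.1 with vector and 784 with myr-AKT1 in A549 and of 51.7 and 184 in HCC827, nearly all of it COL1A1 (76.8 and 765 in A549, 44.5 and 179 in HCC827). Summed endothelial markers had 13.1 and 137 in A549 and 76.3 and 138 in HCC827, and summed leukocyte markers 2.62 and 29.8, and 19.1 and 15.1, while CD3E and COL1A2 were at 0 in every library. The part of these markers in the values of the BCL2-family genes was not tested. In bulk RNA, fewer cells that express a gene and less of its RNA per cell cannot be told apart.

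The sequence upstream of the start differed in kind between the BCL2-family genes whose levels stood out. RefSeq windows of 250 bases before an annotated start (GRCh38.p14) were at hand for 7 of the 10 genes, 12 windows in all, and those of BCL2A1, BCL2L11 and BCL2 are shown, because the first was higher in myr-AKT1 cells of both lines, the second had the largest single difference and the third had no reads in HCC827. Capitals mark matches on either strand to GTAAACA (the FOXO core motif), TTCNNNGAA (the STAT motif) and TATAAA (the TATA motif), which overlap nowhere in these windows.
BCL2A1, chr15:79971197-79971446, minus strand: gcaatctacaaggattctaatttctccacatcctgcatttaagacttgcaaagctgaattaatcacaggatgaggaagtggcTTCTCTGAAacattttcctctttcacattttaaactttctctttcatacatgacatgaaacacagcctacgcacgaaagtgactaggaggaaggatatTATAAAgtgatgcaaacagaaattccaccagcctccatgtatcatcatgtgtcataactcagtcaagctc
BCL2L11, chr2:111120664-111120913, plus strand: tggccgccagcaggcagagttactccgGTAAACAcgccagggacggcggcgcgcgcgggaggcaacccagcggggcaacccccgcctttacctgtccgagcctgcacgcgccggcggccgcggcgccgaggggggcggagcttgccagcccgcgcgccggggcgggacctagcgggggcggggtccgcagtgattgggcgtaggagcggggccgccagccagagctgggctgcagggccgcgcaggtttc
BCL2, chr18:63319770-63320019, minus strand: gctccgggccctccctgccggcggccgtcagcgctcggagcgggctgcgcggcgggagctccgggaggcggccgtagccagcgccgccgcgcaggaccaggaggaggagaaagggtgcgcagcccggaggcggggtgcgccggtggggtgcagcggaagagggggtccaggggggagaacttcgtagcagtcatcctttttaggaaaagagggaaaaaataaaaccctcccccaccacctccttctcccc

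The BCL2A1 window was AT-rich, with 38.8% G and C and 2 CpG dinucleotides, against medians of 58% and 11 over all 35116 RefSeq windows of this length. It held the STAT motif, as TTCTCTGAA beginning 168 bases before the start, and TATAAA beginning 70 bases before it. The BCL2L11 window was a CpG-dense one, with 76.8% G and C and 34 CpG, and held GTAAACA beginning 223 bases before the start. The BCL2 window, with 70% G and C and 24 CpG, held none of the 3 motifs. In GENCODE release 44 the BCL2L11 gene begins at chr2:111119378 and the BCL2 gene at chr18:63320128. The BCL2L11 and BCL2 windows, set by RefSeq starts, therefore lie inside the GENCODE spans of these genes. Of the other 9 windows 1, of BCL2L1, held TATAAA, and none held the FOXO or the STAT motif. Over all windows, 2.98% held the FOXO motif, 6.57% the STAT motif and 10.7% TATAAA, and no match says only that these letters are not in this window.

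The anti-apoptotic genes were led by BCL2L1 and MCL1 in A549 and by MCL1 in HCC827-vector cells, with MCL1 followed by BCL2A1 and BCL2L1 in HCC827-myr-AKT1 cells. Levels between genes are given per length, as RPKM (recovered reads divided by the length of the annotated exons and by the library's total), and changes as the log2 ratio of normalized counts in myr-AKT1 to vector cells. In A549 cells 2 of the 10 genes, BCL2A1 and BCL2L11, were more than 2-fold higher with myr-AKT1 and 0 were more than 2-fold lower, where 14.8% and 9.86% of the 18688 genes averaging 10 or more normalized counts in the pair passed the same folds. In HCC827 cells 2 genes, BCL2A1 and BID, were more than 2-fold higher and 0 lower, against 14.0% and 12.4% of 17306 genes. The counting interval excluded 0 for 6 of the 9 genes above that mean in A549 and 6 of 9 in HCC827, as it did for 69.7% and 70.5% of all genes. BIK in A549 and BCL2 in HCC827 were below that mean.

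**Figure D1:**
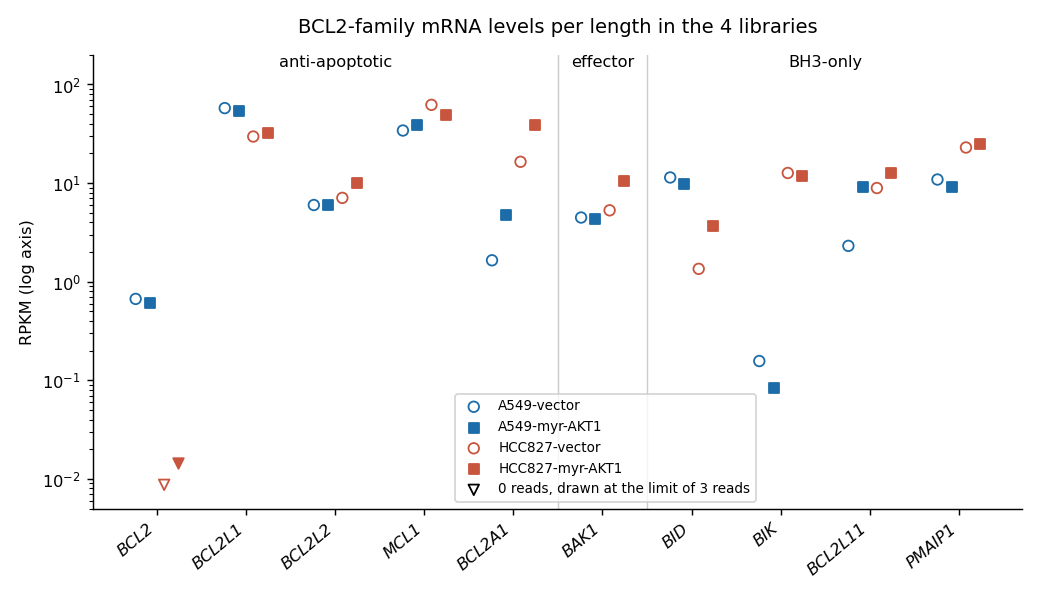
RPKM on a log axis for the 10 BCL2-family genes, grouped by role, with open circles for vector and filled squares for myr-AKT1 cells, A549 in blue and HCC827 in red, and triangles for 0 reads drawn at the limit of 3 reads. MCL1 and BCL2L1 lie between 29.7 and 62.2 RPKM in every library, and the lines stand apart most at BCL2, BIK, BCL2A1 and BID.

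BCL2A1, whose short-lived product (also called BFL-1 or A1) binds BH3-only proteins and whose transcription is known to answer to NF-κB, was higher with myr-AKT1 in both lines. The gene lies at chr15:79960892-79971196 on the minus strand (GENCODE release 44, GRCh38). Its normalized count was 48.0 in A549-vector cells (55 reads), 135 in A549-myr-AKT1 cells (118 reads), 355 in HCC827-vector cells (447 reads) and 797 in HCC827-myr-AKT1 cells (633 reads). By RPKM both HCC827 libraries, at 16.4 and 39.0, lay above both A549 libraries, at 1.65 and 4.71, and within each line the myr-AKT1 library was the higher. The fold was 2.81 in A549 (95% counting interval 2.03 to 3.95) and 2.24 in HCC827 (1.98 to 2.54, which reaches just under 2-fold). BCL2A1 was the only one of the 10 more than 2-fold higher in both lines, as were 4.51% of the 15668 genes that reached the mean of 10 in each pair.

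MCL1, a short-lived protein that binds BAK1 and BCL2L11 and is removed through ubiquitination, differed in opposite directions in the lines. It lies at chr1:150560895-150579738 on the minus strand. Its normalized count was 6220 in A549-vector, 6983 in A549-myr-AKT1, 8395 in HCC827-vector and 6304 in HCC827-myr-AKT1 cells. The log2 fold change was 0.17 in A549 (0.12 to 0.22) and -0.41 in HCC827 (-0.46 to -0.36), so the 2 lines, which differed by 1.82-fold in RPKM between their vector libraries, lay closer together with myr-AKT1, at 38.9 and 49.3 RPKM. MCL1 and BID were the 2 of the 10 genes with opposite directions and both counting intervals excluding 0, against 14.7% of all 15668 genes. An antisense-named gene annotated on the same strand, ADAMTSL4-AS1, shares 328 exon bases with MCL1 and had 28 to 100 reads.

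BCL2L1, whose longer spliced product BCL-XL restrains BAX and BAK1 while its shorter product does the opposite, was nearly level. It lies at chr20:31664452-31723989 on the minus strand, and gene totals do not separate the products. A549-vector and A549-myr-AKT1 cells had normalized counts of 7081 and 6456, and HCC827-vector and HCC827-myr-AKT1 cells of 2703 and 2754. By RPKM both A549 libraries, at 57.6 and 53.3, lay above both HCC827 libraries, at 29.7 and 32.0. The ratio within a line was small, at a log2 of -0.13 (-0.18 to -0.08) and 0.03 (-0.05 to 0.11). ABALON, a lncRNA on the opposite strand that shares 1735 exon bases with BCL2L1, had 6 to 19 reads. BCL2L2, which encodes the related protein BCL-W, lies at chr14:23298790-23311751 on the plus strand. Normalized counts were 850 and 843 in A549-vector and A549-myr-AKT1 cells and 744 and 1007 in HCC827-vector and HCC827-myr-AKT1 cells. Only the HCC827-myr-AKT1 library stood above the other 3, by a log2 fold change of 0.44 (0.30 to 0.57) over its vector. The readthrough gene BCL2L2-PABPN1, with 815 shared exon bases on the same strand, had 3 to 38 reads, and PPP1R3E, with 315 shared exon bases on the opposite strand, had 165 to 442.

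BCL2, the founding member of the family, had reads in A549 alone. It lies at chr18:63123346-63320128 on the minus strand. A549-vector cells had 283 reads and A549-myr-AKT1 cells 191, for normalized counts of 247 and 219 and a log2 fold change of -0.18 (-0.45 to 0.09). Both HCC827 libraries had 0 reads, which at 3 reads allows a normalized count of up to 2.38 with vector and 3.77 with myr-AKT1, so no fold is given there. Per length, BCL2 was at least 76.8-fold higher in A549-vector than in HCC827-vector cells, set against 3 reads in HCC827.

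**Figure D2:**
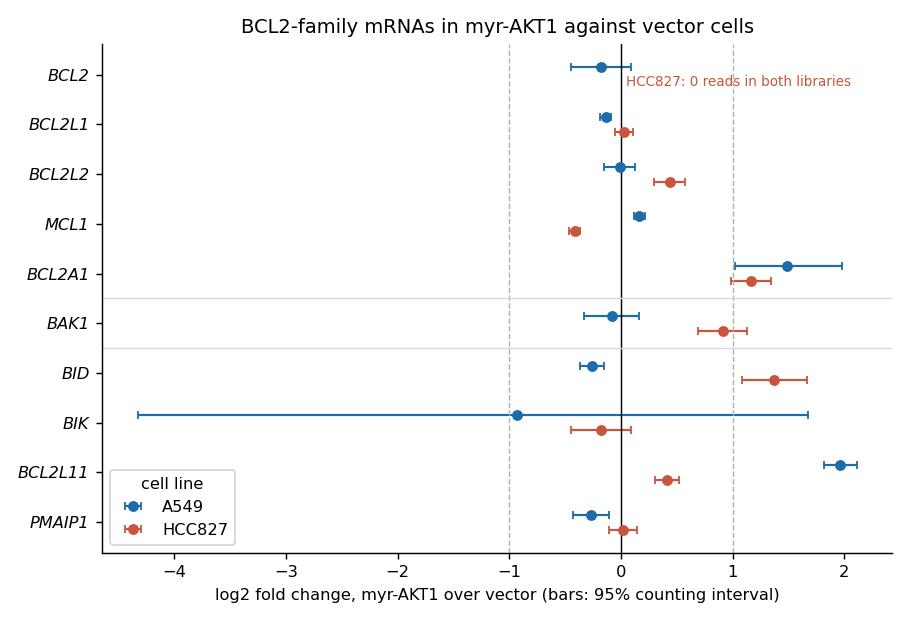
Log2 fold change of normalized counts, myr-AKT1 over vector, for the 10 genes in A549 (blue) and HCC827 (red), with bars for the 95% counting interval and dashed lines at 2-fold. BCL2A1 lies beyond 2-fold in both lines, BCL2L11 in A549 alone at 1.96 and BID in HCC827 alone at 1.37, while the BIK interval in A549 rests on 5 and 2 reads.

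BAK1, the pore-forming effector, was higher with myr-AKT1 in HCC827 cells, short of 2-fold. It lies at chr6:33572547-33580293 on the minus strand. Counts, normalized, were 290 and 274 in A549-vector and A549-myr-AKT1 cells and 254 and 478 in HCC827-vector and HCC827-myr-AKT1 cells. By RPKM the first 3 libraries lay between 4.29 and 5.30 and the HCC827-myr-AKT1 library above them, at 10.5. The log2 fold change of BAK1 was -0.08 (-0.33 to 0.16) in A549 and 0.91 (0.69 to 1.13) in HCC827. Its pseudogene BAK1P1 had 0 to 5 reads. BAX, the partner pore former, had log2 fold changes of -0.36 (-0.45 to -0.27) in A549 and -0.15 (-0.34 to 0.03) in HCC827.

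Among the 4 BH3-only genes of the list, the widest separation of myr-AKT1 from vector was that of BCL2L11 in A549 and of BID in HCC827. BCL2L11 encodes BIM, a BH3-only protein that all anti-apoptotic family members bind and that activates BAX and BAK1, and it lies at chr2:111119378-111168444 on the plus strand. Its normalized count was 456 in A549-vector cells (522 reads), 1780 in A549-myr-AKT1 cells (1554 reads), 1304 in HCC827-vector cells (1641 reads) and 1738 in HCC827-myr-AKT1 cells (1381 reads). By RPKM the A549-vector library was the low one, at 2.31, and the other 3 lay between 8.91 in HCC827-vector and 12.5 in HCC827-myr-AKT1 cells. The fold was 3.90 in A549 (3.53 to 4.32) and 1.33 in HCC827 (1.24 to 1.43), and the difference between the lines in log2 fold change, A549 minus HCC827, was 1.55 (1.37 to 1.73, counting error only). The lncRNA MIR4435-2HG, on the opposite strand with 727 shared exon bases, had normalized counts of 888 and 309 in A549-vector and A549-myr-AKT1 cells and 1671 and 550 in HCC827-vector and HCC827-myr-AKT1 cells. It was lower with myr-AKT1 in both lines, where BCL2L11 was higher, and the strand setting of the authors' counting is not given in the sources used here.

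BID, a BH3-only protein that caspase-8 cleaves and that links death receptors to mitochondria, differed in opposite directions in the lines as well. It lies at chr22:17734138-17774770 on the minus strand. Its normalized count was 1476 in A549-vector, 1234 in A549-myr-AKT1, 130 in HCC827-vector and 336 in HCC827-myr-AKT1 cells. By RPKM the A549 libraries, at 11.4 and 9.68, lay above both HCC827 libraries, at 1.35 and 3.70. Within the lines, myr-AKT1 went with a lower count in A549, at a log2 fold change of -0.26 (-0.37 to -0.15), and a higher count in HCC827, at 1.37 (1.09 to 1.66). The difference, A549 minus HCC827, was -1.63 (-1.93 to -1.33). CASP8, which encodes the protease that cleaves BID, had log2 fold changes of -0.18 (-0.28 to -0.07) in A549 and -1.52 (-1.63 to -1.42) in HCC827.

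PMAIP1 encodes NOXA, a p53-responsive BH3-only protein that binds MCL1, and lies at chr18:59899996-59904305 on the plus strand. Normalized counts of 696 and 578 were found in A549-vector and A549-myr-AKT1 cells and 1090 and 1106 in HCC827-vector and HCC827-myr-AKT1 cells. By RPKM the lines did not overlap, at 10.9 and 9.17 in A549 and 23.0 and 24.6 in HCC827. The ratios within the lines were small, with a log2 of -0.27 (-0.43 to -0.10) and 0.02 (-0.10 to 0.14). BIK, a BH3-only protein of the endoplasmic reticulum at chr22:43110750-43129712 on the plus strand, had 5 and 2 reads in A549-vector and A549-myr-AKT1 cells. HCC827-vector and HCC827-myr-AKT1 cells had 329 and 184 reads, for normalized counts of 261 and 232. The log2 fold change was -0.18 (-0.44 to 0.09) in HCC827 and -0.93 (-4.32 to 1.68) in A549, where 2 reads carry almost no information on a ratio.

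Over the list, 3 of 10 genes lay above 0 on the log2 scale in A549 and 7 of the 9 with reads did in HCC827, beside 12150 of 24302 and 11366 of 22736 among all genes with a ratio. The A549 count was 4 with TMM or total reads and 5 with size factors over 4 libraries, and the HCC827 count was 7 under each of these. Among the listed genes that reached the mean of 10, the median was -0.08 in A549 and 0.41 in HCC827, beside -0.04 and -0.04 over all genes that reached it. With BIK included, the A549 median was -0.11. BCL2A1 had 9.11% of all genes above it in A549 and 11.3% in HCC827, BCL2L11 had 5.73% and 29.4%, and BID had 62.4% and 8.67%.

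A fit over the 4 libraries asked which genes differed between myr-AKT1 and vector cells on average over both lines (limma on log2(normalized count + 1), cell line as a block, 1 residual degree of freedom). Of the 10 genes 0 passed a Benjamini-Hochberg adjusted p of 0.05, where 1.29% of 19314 genes were called higher and 1.73% lower. An unadjusted limma p under 0.05 was found for 2 of the 10. Among all 19314 genes, 1772 were higher and 1785 lower at that unadjusted p. The 2 genes were BCL2A1, with a fitted log2 difference of 1.32 (SE 0.403, limma adjusted p = 0.138), and BCL2L11, with 1.19 (SE 0.381, limma adjusted p = 0.152). Both were higher in 2 of 2 lines, with BCL2L11 at 1.96 in A549 and 0.41 in HCC827. Each SE and p rests on a variance that limma moderated over all genes fitted, not on that gene's own spread between the lines alone. For the other 8 genes the limma adjusted p lay between 0.550 and 0.967. With edgeR on recovered reads 0 of 10 passed (lowest adjusted p = 0.122), whereas DESeq2 called BCL2A1 (adjusted p = 0.0330). Over the alternatives that kept the cell line term, run with limma, edgeR or DESeq2, the adjusted p lay between 0.0330 and 0.206 for BCL2A1 and between 0.00582 and 0.265 for BCL2L11.

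The make-up of the anti-apoptotic mRNA was set out as each gene's share of the summed RPKM of the 5 genes, a quantity that does not depend on library scaling. The sum itself was 100.1 RPKM in A549-vector, 104 in A549-myr-AKT1, 115 in HCC827-vector and 130.4 in HCC827-myr-AKT1 cells. BCL2A1 took 1.65% and 4.55% in A549-vector and A549-myr-AKT1 cells, and 14.3% and 29.9% in HCC827-vector and HCC827-myr-AKT1 cells. In HCC827 cells the MCL1 share was 53.9% with vector and 37.8% with myr-AKT1, while BCL2L1 was at 25.7% and 24.5%. In A549 cells BCL2L1 was at 57.6% and 51.5% and MCL1 at 34.1% and 37.6%. BCL2L2 stayed between 5.83% and 7.77% of the sum, and BCL2 was at 0.669% and 0.580% in A549. Taking the canonical transcript's length in place of all annotated exons put BCL2A1 at 11.9% and 25.7% in HCC827-vector and HCC827-myr-AKT1 cells and BCL2L1 at 27.3% and 26.9%, so that BCL2A1 no longer stood above BCL2L1.

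**Figure D3:**
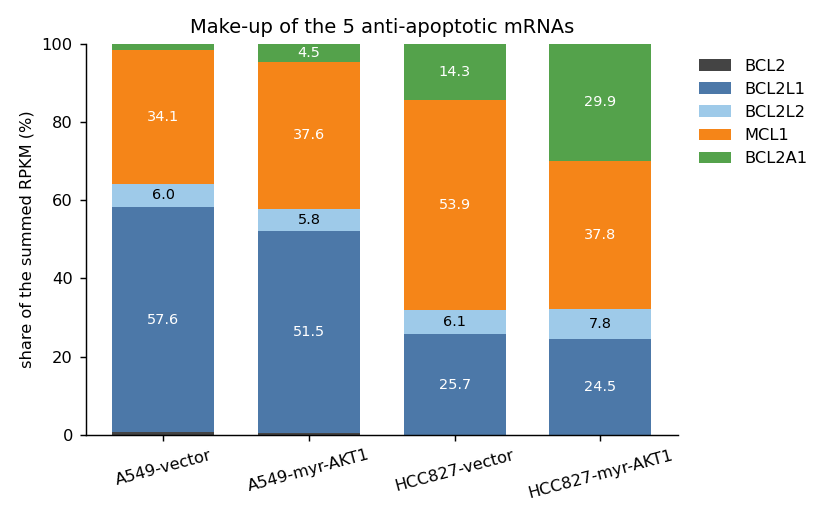
Share of each anti-apoptotic gene in the summed RPKM of the 5, in percent, for each library. BCL2A1 (green) occupies 29.9% of the HCC827-myr-AKT1 bar and 14.3% of the HCC827-vector bar, next to 4.55% and 1.65% in A549.

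The 4 BH3-only genes BID, BIK, BCL2L11 and PMAIP1 summed to 24.7 RPKM in A549-vector, 28.1 in A549-myr-AKT1, 45.9 in HCC827-vector and 52.7 in HCC827-myr-AKT1 cells. Set against the anti-apoptotic sum, this was a ratio of 0.247 and 0.271 in A549 and of 0.398 and 0.404 in HCC827 for these 4 genes. The sum leaves out other BH3-only genes such as BMF, whose normalized count was 633 in HCC827-vector and 4301 in HCC827-myr-AKT1 cells. Within the BH3-only sum of A549, BCL2L11 made up 9.33% with vector and 32.6% with myr-AKT1, BID 46.1% and 34.5%, and PMAIP1 43.9% and 32.7%. In HCC827, PMAIP1 led with 50.04% and 46.7%, followed by BIK with 27.6% and 22.5% and BCL2L11 with 19.4% and 23.8%, and BID held 2.94% and 7.02%.

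In all of these genes but BCL2L2, BAK1 and BCL2L11, the vector libraries of the lines stood further apart than the myr-AKT1 and vector libraries of either line. The share of all genes for which this holds is not given, so it cannot be read as particular to this family. Because size factors were set within each line, the comparison is on RPKM, from 1 library each. In HCC827-vector cells BIK was 80.8-fold higher than in A549-vector cells, with 5 reads in A549, BCL2A1 9.98-fold, BCL2L11 3.86-fold, PMAIP1 2.11-fold and MCL1 1.82-fold higher. In A549-vector cells BID was 8.45-fold higher and BCL2L1 1.94-fold higher. BCL2L2 and BAK1 were the closest, both 1.18-fold higher in HCC827.

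The order of levels differed between the lines and, in part, between the vector and myr-AKT1 libraries of a line. In A549 it ran BCL2L1, MCL1, BID, PMAIP1 in both libraries, with BID at 9.68 RPKM and PMAIP1 at 9.17 RPKM in myr-AKT1 cells lying close together. BCL2L11 followed at 9.15 RPKM there and stood at 2.31 RPKM with vector. In HCC827-vector cells the order was MCL1, BCL2L1, PMAIP1, BCL2A1, BIK, and in HCC827-myr-AKT1 cells BCL2A1, at 39.0 RPKM, stood above BCL2L1 at 32.0 RPKM and below MCL1 at 49.3 RPKM. By the canonical transcript's length the first pair changed places, with BCL2L1 at 26.9% and BCL2A1 at 25.7% of the anti-apoptotic sum in these cells. With 1 library per group, no spread between cultures is known against which neighbours in this order could be set.

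BCL2A1 had the largest mean of the log2 fold changes in the 2 lines, 1.33. Among the 12026 genes averaging 50 or more normalized counts in each pair, those nearest to it in the plane of those 2 values included HELZ2 (1.47 in A549 and 1.14 in HCC827) and VPS9D1 (1.42 and 1.11). Both lay within a distance of 0.1, and likeness over 2 ratios is a description only.

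Around the 10 genes stood 53 further genes of the apoptosis pathway in 6 lists, of which limma called 3 of the 48 fitted. Over all 19314 genes fitted, limma called 1.29% higher and 1.73% lower. BMF, a BH3-only gene, rose, with log2 fold changes of 1.47 in A549 and 2.76 in HCC827 (limma adjusted p = 0.0366). TNFSF10, which encodes the death ligand TRAIL, rose, with 4.22 and 1.64 (limma adjusted p = 0.0413). BIRC5, which encodes survivin, an inhibitor-of-apoptosis protein made in dividing cells, fell, with -2.97 and -1.25 (limma adjusted p = 0.0386). With edgeR on recovered reads BMF remained called and the adjusted p was 0.0609 for TNFSF10 and 0.0599 for BIRC5, and over all alternatives 0 to 5 of these pathway genes were called.

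Of the 13 other BCL2-family genes 11 were fitted and 1, BMF, passed the test, and their median log2 fold change was 0.57 in A549 and -0.15 in HCC827 among those with a mean of at least 10. Of 4 FOXO factors 0 passed, with values above 0 for all 4 in both lines (0.47 to 1.46 in A549 and 0.31 to 1.65 in HCC827), and FOXO4 was more than 2-fold higher in both, at 1.02 and 1.65. The value of 1.46 in A549 rests on 10 reads with vector and 21 with myr-AKT1 (counting interval 0.31 to 2.71). That factor had 9 and 15 reads in HCC827. Of the enzymes that add ubiquitin to MCL1 or remove it 0 of 4 fitted passed, with medians of 0.01 in A549 and 0.15 in HCC827. Apoptosome, caspase and mitochondrial genes had medians of -0.01 and -0.16 with 0 of 13 called, death receptor genes 0.41 and 0.33 with 1 of 10 called, and inhibitor-of-apoptosis genes 0.31 and -0.06 with 1 of 6 called. These list counts stand beside 1.29% called higher and 1.73% called lower among all genes fitted, and no list was tested as a set.

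**Figure D4:**
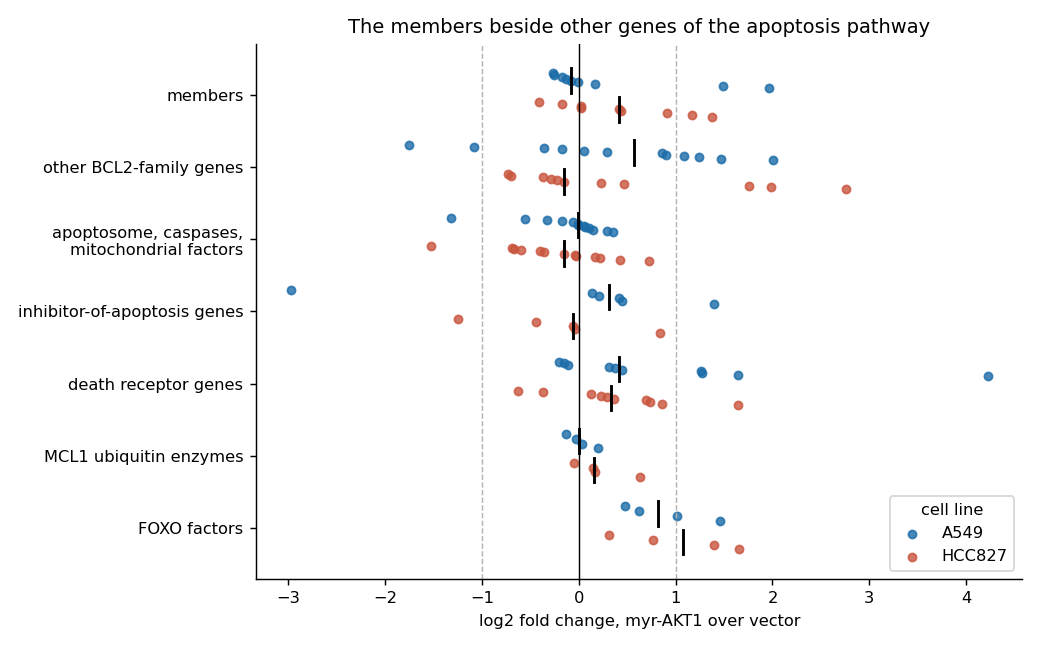
Log2 fold change of normalized counts, myr-AKT1 over vector, for the 10 BCL2-family genes and 6 further lists of apoptosis genes, 1 point per gene averaging 10 or more normalized counts, A549 in blue and HCC827 in red, black bars for list medians and dashed lines at 2-fold. The FOXO factors lie above 0 in both lines, TNFSF10 is the point at 4.22 in A549 and BIRC5 the point at -2.97.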

How the data were processed

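RNA from A549 and HCC827 cells carrying vector or myr-AKT1 was sequenced in strand-specific libraries, 1 per condition and line. The labels describe ribosomal RNA removal and the study's methods selection of polyadenylated RNA. Per the labels' processing notes, the authors used Bowtie2, HTSeq and hg38; Bowtie2 does not split reads at introns, and the effect on gene values was not tested. The methods name RPKM, but the deposited signal per Ensembl gene proved to be counted reads scaled by a size factor for each library. Whole reads (within 0.001) were recovered for all values but 1 in each vector library. The total was 33530317 reads in A549-vector, 25190760 in A549-myr-AKT1, 27312465 in HCC827-vector and 16322183 in HCC827-myr-AKT1.

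Groups came from the labels. Genes were named from GENCODE release 44, and 297 of 60558 had no match. Ratios within a line used no pseudocount and 95% Clopper-Pearson intervals, and a count of 0 was set at 3 reads. Intervals and limits cover counting error only. They treat reads as independent molecules, which reads are not, so they can be too narrow. RPKM used the union of annotated exons. The fit over both lines was limma (trend) on log2(normalized count + 1) for genes kept by edgeR's filterByExpr, with Benjamini-Hochberg adjustment over all of them. The count tests edgeR (quasi-likelihood, TMM) and DESeq2 were alternatives on recovered reads. The fits and the intervals were run on simulated data with known changes, as a check of the code only. For the fits these changes were set the same in both lines, so the check does not bear on the spread between cultures. The genes and lists were chosen with earlier results of these data known. All 10 BCL2-family genes are named, and pathway genes only where past 2-fold the same way in both lines with a mean of at least 50 in each pair, or as the partner a gene is described with. Genes most like BCL2A1 were the 3 nearest by their log2 fold changes in both lines, of which 1 is not reported here. Alternatives were other scalings, filters, thresholds, pseudocounts and exon lengths. DESeq2 1.42.0, edgeR 4.0.16 and limma 3.58.1 ran in R 4.3.3, and pandas 2.3.3, scipy 1.17.1 and numpy 2.4.6 in Python 3.11.15.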

Additional observations from a re-analysis of the deposited data

Results flagged for a closer look

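Opposite directions in the 2 cell lines, with both counting intervals excluding 0, were found for 2 of the 10 genes, beside 14.7% of all genes. For MCL1 the log2 fold change was 0.17 in A549 and -0.41 in HCC827. For BID it was -0.26 in A549 and 1.37 in HCC827. With 1 library per condition in each line, neither difference was tested beyond counting error.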

How the results depend on the processing

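Values near 0 changed sign with the scaling, none of them past 2-fold or past the test. In A549, BCL2L2 was at -0.01 as reported, at 0.01 with TMM or total reads and at 0.09 with size factors over 4 libraries, which also put BAK1 at 0.02 in place of -0.08. In the fit over both lines, BCL2 was at -0.09 and, with DESeq2, at 0.060, and BCL2L1 at -0.05 and, with DESeq2 and with edgeR and DESeq2 size factors, at 0.041 and 0.022. A threshold of log2 2 left 0 of the 10 BCL2-family genes past it in A549 and 0 in HCC827. Over all genes it left 1032 higher and 519 lower in A549, and 768 higher and 519 lower in HCC827, where log2 1 gave 2769 and 1843, and 2416 and 2139. With at least 1 read in both libraries in place of a mean of 10, counts were 4433 higher and 3009 lower in A549 and 3975 higher in HCC827, and with a mean of at least 50 they were 1570, 1103, 1342 and 1348. The fit over both lines called 250 genes higher and 335 lower with limma, 42 and 57 with edgeR and DESeq2 size factors, 621 and 518 with DESeq2, 1101 and 894 with genes of at least 1 read in any library, and 0 and 0 without the cell line term or with a pseudocount of 0.1. Among the 10 genes, BCL2A1 passed with DESeq2, and BCL2A1 (adjusted p = 0.0423) and BCL2L11 (adjusted p = 0.00582) passed in the limma fit over genes of at least 1 read. Under other scalings and a pseudocount of 1, 72 single-gene ratios moved by less than counting error and 4 by more, all of the latter for BCL2L1 and MCL1. Size factors over 4 libraries moved the median of all genes in A549 by 0.10 on the log2 scale, and gave BCL2L1 -0.03 and MCL1 0.27 there. No replicate could be left out, because each condition had 1 library in a line, and BIK in A549 and BCL2 in HCC827 are limited by depth. The fit over both lines pairs each myr-AKT1 library with the vector library of its own line, and the labels give no replicate numbers for any other pairing.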
